A study of Mus musculus with 24 samples.

Results

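GABAergic interneurons are the inhibitory neurons of the hippocampus, and 10 genes that mark them or their main subtypes were followed by gene symbol in a table of 24062 genes. They were Gad1, Gad2, Slc32a1, Lhx6, Dlx6os1, Npy, Sst, Pvalb, Vip and Cck, and all 10 were among the 16313 genes kept by the filter on low counts. RNA of dissected hippocampus from C57BL/6 mice had been sequenced in 24 libraries. Wild-type mice (WT) and mice with a knockout of the interleukin-1 receptor IL-1R1 in neurons (KO) were either left as controls or put through social defeat by paired fighting (stress). The WT mice gave 7 control and 6 stress libraries, and the KO mice 6 control and 5 stress libraries. The labels give neither the promoter behind the neuronal deletion nor the age or sex of the mice. They also do not say that each library is a separate mouse, so the p-values speak for the spread among the sequenced samples, part of which may be technical.

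Inhibitory neurons make GABA from glutamate with glutamate decarboxylase and load it into vesicles with the transporter encoded by Slc32a1. Most hippocampal interneurons arise in the ganglionic eminences of the embryo, where Dlx genes act throughout and Lhx6 in cells of the medial eminence, and mature into subtypes that are told apart by the calcium-binding protein parvalbumin or by peptides such as somatostatin, neuropeptide Y, VIP and cholecystokinin. Several of these genes also work outside hippocampal interneurons. Gad1, Gad2 and Slc32a1 serve GABAergic neurons of the striatum, hypothalamus and reticular thalamus, and Cck is also transcribed in excitatory neurons. In tissue RNA, fewer cells of a type and less RNA per cell cannot be told apart.

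The promoters of the 4 peptide genes are shown because all 4 genes had low levels in the same 3 libraries, given with the other values further on. Each line gives 250 bases before the annotated start from RefSeq (GRCm38.p6), read 5′ to 3′ on the strand of the gene. The windows lie at chr16:23890845-23891094 on the minus strand for Sst, chr10:5638968-5639217 on the plus strand for Vip, chr9:121495695-121495944 on the minus strand for Cck and chr6:49822460-49822709 on the plus strand for Npy. Capitals mark the letters of 3 motifs searched on both strands: the full cyclic AMP response element TGACGTCA, its core TGACG or CGTCA, and the TATA box letters TATAAA or TTTATA.
Sst: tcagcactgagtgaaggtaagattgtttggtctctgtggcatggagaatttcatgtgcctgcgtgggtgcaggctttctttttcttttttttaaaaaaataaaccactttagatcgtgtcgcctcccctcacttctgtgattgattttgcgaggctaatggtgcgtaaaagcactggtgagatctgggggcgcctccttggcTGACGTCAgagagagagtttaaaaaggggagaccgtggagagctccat
Vip: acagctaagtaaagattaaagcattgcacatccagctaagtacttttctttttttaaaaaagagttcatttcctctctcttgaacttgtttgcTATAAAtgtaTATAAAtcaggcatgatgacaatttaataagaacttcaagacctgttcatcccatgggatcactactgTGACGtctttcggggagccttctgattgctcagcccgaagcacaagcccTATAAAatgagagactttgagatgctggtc
Cck: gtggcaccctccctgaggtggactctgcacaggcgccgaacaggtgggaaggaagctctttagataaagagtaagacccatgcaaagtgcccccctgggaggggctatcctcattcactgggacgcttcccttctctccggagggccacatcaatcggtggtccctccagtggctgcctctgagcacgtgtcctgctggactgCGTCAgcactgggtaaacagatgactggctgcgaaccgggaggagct
Npy: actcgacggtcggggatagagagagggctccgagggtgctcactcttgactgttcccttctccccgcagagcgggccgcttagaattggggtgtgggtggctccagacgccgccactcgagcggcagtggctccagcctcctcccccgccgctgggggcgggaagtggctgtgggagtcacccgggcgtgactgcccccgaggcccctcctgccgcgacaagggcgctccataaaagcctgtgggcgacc
The Sst window held the full element, with its first base 48 bases before the start, and this match contains a core on each strand (first bases 48 and 45 before the start). Vip had a core 79 bases and Cck one 47 bases before the start, and Vip also had TATA letters at 157, 147 and 30 bases. The Npy window held none of these letters, which says nothing about the factors that act there. Among the other members, Gad2 had a core 33 bases before its start, and a window of Dlx6os1 had one at 120 bases. Lhx6, which was also low in the same 3 libraries, had none of the motifs in its 3 windows. No link between these motifs and the levels was tested. GENCODE M21 places the start of Sst inside the window printed here, upstream of the RefSeq start. Of 32851 promoter windows of the same length, 1.55% held the full element, 17.8% a core and 12.4% the TATA letters.

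The libraries had 25711872 to 35148198 counts each, and levels are given as CPM, counts scaled to the library size after TMM normalization. The ribosomal precursor Rn45s parted them into 11 libraries with 24238 to 50453 CPM (set 1: replicates 1 to 3 of WT control, 1 and 2 of WT stress, 1 to 4 of KO control, 1 and 2 of KO stress) and 13 with 4107 to 8786 CPM (set 2). The labels do not name these sets. Replicate 5 of WT stress and replicates 3 and 5 of KO stress, all in set 2, stood apart by transcripts of the neighbouring thalamus and habenula. Their summed level of 18 such markers was 1127, 1195 and 907 CPM, against 195 to 365 CPM in the other 10 libraries of set 2 and 384 to 834 CPM in set 1. The stress values of the members are therefore also shown without these 3 libraries, in the figures or in the text. Il1r1, the targeted gene, had 3.35 ± 1.31 CPM (SD, n = 7) in WT and 3.44 ± 1.21 CPM (n = 6) in KO controls. After stress it had 5.56 ± 1.45 CPM (n = 6) in WT and 5.54 ± 1.77 CPM (n = 5) in KO mice. The deletion is neuronal and other brain cells also transcribe the gene, so these levels do not check the genotype labels.

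Every interneuron gene was detected in every library. Per kilobase of annotated exon, the median levels over 24 libraries ran from Sst (465 CPM per kb, range 282 to 620) and Cck (379, 205 to 472) through Npy (116, 43.3 to 151), Pvalb (90.5, 42.4 to 165), Slc32a1 (55.2, 39 to 70.4), Gad1 (37.8, 31.9 to 47.1) and Gad2 (19.7, 12.8 to 31.8) to Vip (8.23, 2.83 to 14.9), Lhx6 (4.52, 2.73 to 5.79) and Dlx6os1 (1.75, 1.3 to 2.78). Ranges of neighbours in this order overlapped, except that every library of Gad1 lay above the highest Gad2 value and every library of Cck above the highest Npy value. Exon lengths come from GENCODE M21, and the annotation used for counting is not given in the sources used here, so the order is approximate.

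None of the 10 genes passed the test for stress in either genotype. In WT mice, edgeR's quasi-likelihood test with Benjamini-Hochberg adjustment called 0 of 10 members beside 0.135% of all genes (22, all higher, and 0% lower), and DESeq2 and limma voom also called 0 of 10. In KO mice it called 0 of 10 beside 0.00613% (1 gene, higher, and 0% lower), and again DESeq2 and limma voom called none. At an unadjusted p under 0.05, edgeR had 0 of 10 members in both genotypes, where all genes had 4.41% in WT and 3.97% in KO mice. Among the members DESeq2 had 0 in WT mice beside 4.74% of all genes, and 1 in KO mice (Npy) beside 4.61%. Limma voom with quality weights had 0 in WT mice beside 5.86%, and 5 in KO mice (Cck, Lhx6, Npy, Sst and Vip) beside 11.4%. No member's stress and control libraries were free of overlap in either genotype, against 0.282% of genes in WT and 0.3% in KO mice.

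Gad1 and Gad2 encode the forms of glutamate decarboxylase, of which the first makes most basal GABA and the second supplies synaptic terminals. Gad1 (chromosome 2, 70553072 to 70602014, plus strand, mm10) had 254 to 328 CPM in WT controls (median 280), 244 to 306 CPM in WT stress (median 276) and 288 to 360 CPM in KO controls (median 291). The 5 KO stress libraries, in order of replicate number, had 288, 253, 289, 263 and 305 CPM of Gad1. Its standard errors were the smallest of the 10 genes, and all groups overlapped. Its stress log2 fold change was −0.07 ± 0.07 (SE) in WT mice, with a 95% interval of −0.22 to 0.09, and −0.12 ± 0.08 (−0.29 to 0.05) in KO mice, with edgeR adjusted p of 1 and 0.988.

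Gad2 (chromosome 2, 22622205 to 22693874, plus strand) spread more widely, from 86.3 to 164 CPM in WT controls (median 99), 75.4 to 135 CPM in WT stress (median 107) and 92.6 to 187 CPM in KO controls (median 118). In the KO stress libraries, in the same order, Gad2 had 144, 108, 149, 86.2 and 149 CPM. The high values of Gad2 lay in set 1 in every group, and in the 3 thalamus-rich stress libraries of set 2. Stress gave a log2 fold change of −0.11 ± 0.19 in WT and 0.03 ± 0.21 in KO mice (edgeR adjusted p = 1 and 0.995), and the KO value was −0.15 ± 0.25 without the 3 libraries.

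Slc32a1, the vesicular GABA transporter gene (chromosome 2, 158610767 to 158615748, plus strand), had 117 to 180 CPM in WT controls (median 139), 109 to 197 CPM in WT stress (median 137) and 117 to 193 CPM in KO controls (median 176). Replicates 1 to 5 of KO stress had 160, 166, 169, 120 and 161 CPM. All 4 groups overlapped, and replicate 4 of the KO stress group was its one low library. The stress log2 fold change was −0.02 ± 0.14 in WT and −0.08 ± 0.15 in KO mice (edgeR adjusted p = 1 and 0.988). The gene shares 697 exonic bases with the antisense gene Gm14205, and since the use of strand in counting is not given, reads of the pair cannot be told apart.

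Lhx6, a homeobox gene of interneurons from the medial ganglionic eminence (chromosome 2, 36081953 to 36105408, minus strand), had 20.1 to 25.5 CPM in WT controls (median 23.3), 17.1 to 27.8 CPM in WT stress (median 20.3) and 18.9 to 26.1 CPM in KO controls (median 23). For KO stress the libraries had 20.6, 18.9, 13.1, 26 and 16.4 CPM, so replicates 3 and 5 lay below every KO control library. For Lhx6 the stress log2 fold change was −0.12 ± 0.13 in WT and −0.25 ± 0.14 in KO mice (edgeR adjusted p = 1 and 0.988), and −0.05 ± 0.13 in KO mice without the 3 libraries. Dlx6os1, a noncoding RNA from the Dlx5 and Dlx6 locus (chromosome 6, 6820189 to 6871592, minus strand), was the least abundant member. It had 6.99 to 14.4 CPM in WT controls (median 10.1), 6.94 to 11 CPM in WT stress (median 7.92) and 6.71 to 12.9 CPM in KO controls (median 10.1), and the 5 KO stress libraries had 8.66, 6.8, 7.25, 11 and 9.21 CPM. The groups overlapped, with log2 fold changes of −0.26 ± 0.17 in WT and −0.21 ± 0.18 in KO mice (edgeR adjusted p = 1 and 0.988). Lhx6 shares 104 exonic bases with the same-strand gene Gm27953, and Dlx6os1 shares 207 and 180 exonic bases with Gm27905 and Gm27699 on the other strand, so reads there cannot be told apart either.

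Npy and Vip had the most negative stress values of the KO group. Npy encodes neuropeptide Y, a peptide that dampens transmitter release (chromosome 6, 49822710 to 49829507, plus strand). It had 48.3 to 82.8 CPM in WT controls (median 68.1), 38.7 to 84.9 CPM in WT stress (median 62.9) and 63.6 to 85.7 CPM in KO controls (median 68.1). KO stress libraries 1 to 5 had 60.1, 81.1, 34.4, 55.4 and 24.5 CPM, so 4 of 5 were below every KO control and replicate 2 was within their range. In KO mice the stress log2 fold change was −0.47 ± 0.23 (95% interval −0.94 to 0.01), with an edgeR p of 0.0532 unadjusted and 0.988 adjusted. Leaving out 1 library moved it from −0.7 (without KO stress 2) to −0.29 (without KO stress 5). Without the 3 thalamus-rich libraries it was −0.11 ± 0.17, and in WT mice it was −0.14 ± 0.21 with all libraries and −0.03 ± 0.14 without the 3.

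Vip encodes vasoactive intestinal peptide, made by interneurons that mostly inhibit other interneurons (chromosome 10, 5639218 to 5647617, plus strand). It had 20.9 to 38 CPM in WT controls (median 29.3), 11.5 to 50.6 CPM in WT stress (median 32) and 26.3 to 34.5 CPM in KO controls (median 28). After stress, KO libraries 1 to 5 had 26.7, 33.5, 9.63, 22.9 and 11.5 CPM. The lowest WT stress library was replicate 5, and the lowest KO stress libraries were replicates 3 and 5, which are the 3 thalamus-rich libraries. The stress log2 fold change of Vip was 0.09 ± 0.27 in WT mice and −0.48 ± 0.3 in KO mice (95% interval −1.1 to 0.14, edgeR adjusted p = 1 and 0.988), and the KO value ran from −0.72 without KO stress 2 to −0.3 without KO stress 3. Without the 3 libraries the WT and KO values were 0.27 ± 0.16 and −0.07 ± 0.2 (edgeR adjusted p = 0.981 and 1).

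Sst, for somatostatin, marks interneurons that contact the dendrites of pyramidal cells (chromosome 16, 23889573 to 23890958, minus strand). It had 212 to 447 CPM in WT controls (median 379), 214 to 441 CPM in WT stress (median 319) and 251 to 374 CPM in KO controls (median 341). Stressed KO libraries had 279, 351, 231, 302 and 203 CPM, of which replicates 3 and 5 lay below the KO controls. For Sst the stress log2 fold change was −0.07 ± 0.17 in WT and −0.26 ± 0.19 in KO mice (edgeR adjusted p = 1 and 0.988), and 0.04 ± 0.16 and −0.07 ± 0.19 without the 3 libraries. No WT stress library of Sst lay outside the WT control range.

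Cck, for cholecystokinin, marks a class of basket cells and is also made by pyramidal cells (chromosome 9, 121489824 to 121495694, minus strand). It had 337 to 616 CPM in WT controls (median 525), 333 to 601 CPM in WT stress (median 515) and 325 to 580 CPM in KO controls (median 469). Cck in KO stress libraries 1 to 5 was 394, 496, 302, 506 and 267 CPM, with replicates 3 and 5 again below every KO control. The stress log2 fold change was −0.02 ± 0.18 in WT and −0.23 ± 0.2 in KO mice (edgeR adjusted p = 1 and 0.988), and 0.06 ± 0.16 and 0.01 ± 0.19 without the 3 libraries.

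Pvalb, for the calcium buffer of fast-spiking basket cells (chromosome 15, 78191114 to 78206400, minus strand), did not share the low values. It had 44.1 to 125 CPM in WT controls (median 86.7), 67.4 to 172 CPM in WT stress (median 87.2) and 74.5 to 156 CPM in KO controls (median 92.5). The 5 KO stress libraries had 97.9, 129, 101, 74.2 and 104 CPM, all within the KO control range except replicate 4 just below it. The stress log2 fold change was 0.25 ± 0.24 in WT and −0.03 ± 0.26 in KO mice (edgeR adjusted p = 1 and 0.995).

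**Figure D1:**
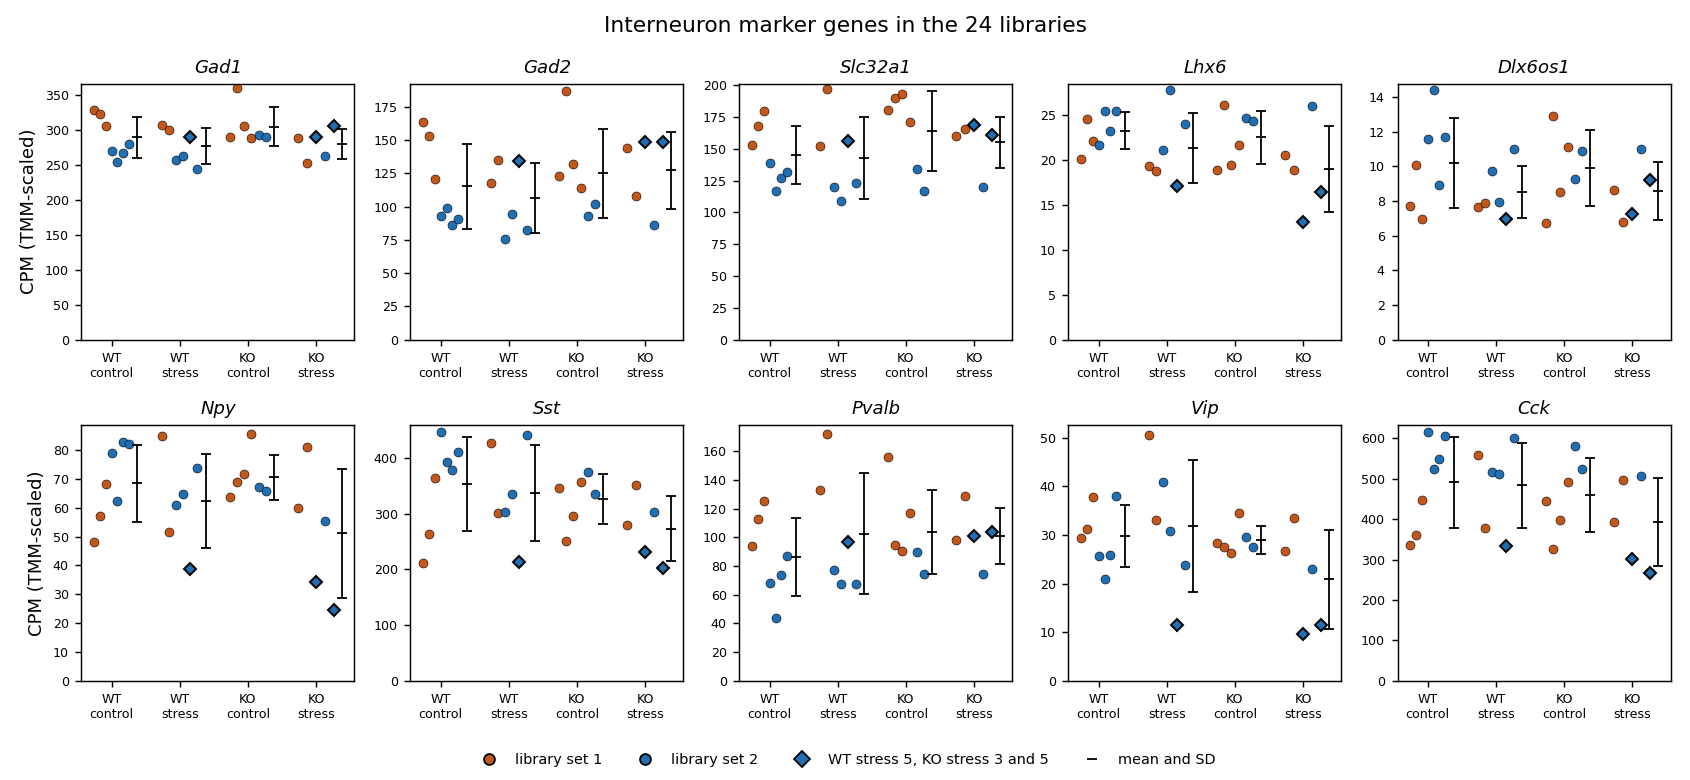
Level of each of the 10 genes in every library (y axis, TMM-scaled CPM) by group, with 1 point per library coloured by library set, diamonds for WT stress 5 and KO stress 3 and 5, and bars for mean and SD. The diamonds are the lowest points of Npy, Vip and Cck in their groups, for example 9.63 to 11.5 CPM for Vip, and sit among the upper points for Gad2.

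Over the 10 genes, the stress log2 fold change in WT mice was above 0 for 2 and below 0 for 8, with a median of −0.07 beside −0.001 over all genes tested. In KO mice it was above 0 for 1 and below 0 for 9, with a median of −0.22 beside 0.005. Without WT stress 5 and KO stress 3 and 5 the medians were −0.04 in WT and −0.09 in KO mice. With the library set as a term they were −0.05 and −0.27, and with the replicate number as a block −0.06 and −0.17. Within set 1 the median was 0.15 in WT and −0.08 in KO mice, and within set 2, which holds the 3 libraries, it was −0.07 and −0.27. Both sets contain all 4 groups, with 2 stress libraries of each genotype in set 1. For stress in KO mice, Cck, Npy and Sst within set 2 and Npy and Vip with the block had an unadjusted p under 0.05. For stress in WT mice, Dlx6os1 did within set 2. There were 0 such members in either genotype within set 1, without the 3 libraries or with the set as a term. The share of all genes is not given for these fits.

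**Figure D2:**
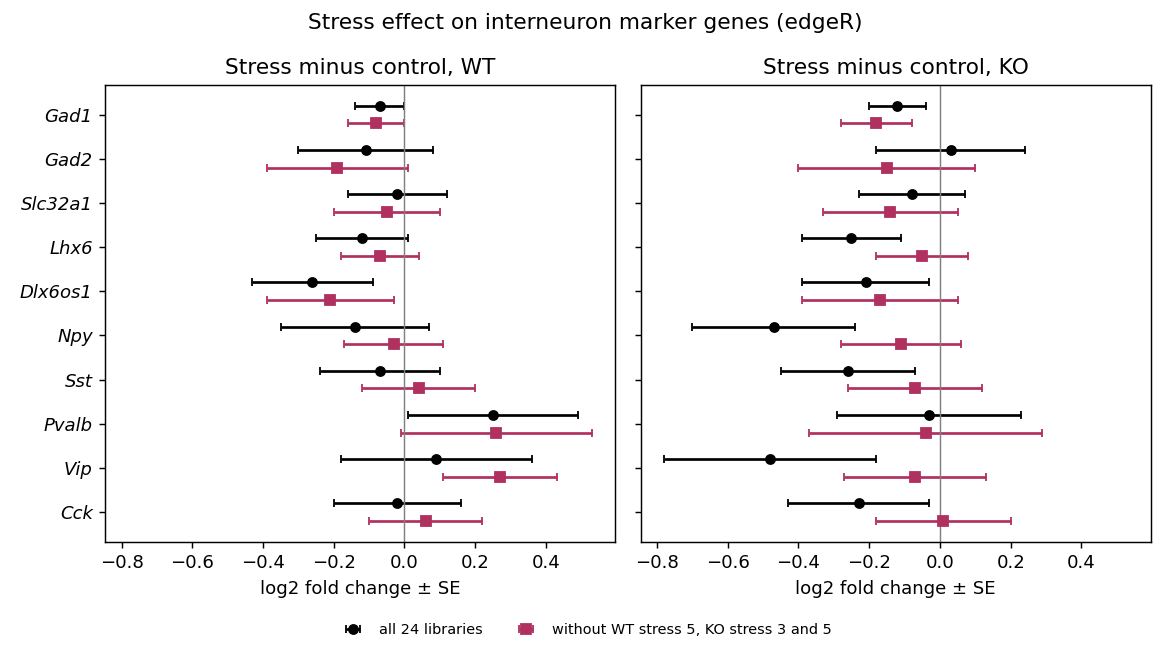
Stress minus control log2 fold change from edgeR (x axis, bars are 1 SE) for the 10 genes in WT (left) and KO mice (right), with all 24 libraries (black) and without WT stress 5, KO stress 3 and KO stress 5 (red). In KO mice Npy and Vip lie at −0.47 and −0.48 with all libraries and at −0.11 and −0.07 without these 3.

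The interaction asks whether stress acted differently in KO and WT mice. It called 0 of 10 members with edgeR, beside 0% of all genes (0% higher and 0% lower), and at an unadjusted p under 0.05 edgeR had 0 of 10 beside 2.35% of genes. DESeq2 also called 0 and had 0 unadjusted beside 2.65% of genes, while voom called 0 and had 1 unadjusted (Vip) beside 5.49%. Vip had the lowest interaction value, −0.57 ± 0.4 on the log2 scale (95% interval −1.4 to 0.26), followed by Npy at −0.33 ± 0.31 (−0.97 to 0.31). Without the 3 libraries they were −0.33 ± 0.26 and −0.08 ± 0.22, and Gad1 had the narrowest interval with all libraries (−0.28 to 0.17).

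Among controls, KO and WT libraries were compared for an effect of genotype without stress. EdgeR called 0 of 10 members beside 0% of all genes (0% in either direction), had 0 of 10 at an unadjusted p under 0.05 beside 3.02%, and found 0 of 10 without overlap beside 0.0552%. DESeq2 and voom also had 0 called and 0 unadjusted, beside 3.32% and 8.48% of genes unadjusted. The largest differences were Pvalb at 0.26 ± 0.24 and Slc32a1 at 0.18 ± 0.14 on the log2 scale (edgeR adjusted p = 1 for both), and Vip, Npy, Lhx6 and Dlx6os1 were all within 0.04 of 0. In this comparison all 15 tested striatal and all 14 hypothalamic markers were higher in KO libraries (median log2 1.311 and 1.803), where 7925 of 16313 genes were. Of these markers, 9 and 7 had an edgeR unadjusted p under 0.05, and none passed after adjustment. All 18 thalamus and habenula markers (median log2 0.623) and all 8 oligodendrocyte markers (0.278) were also higher in KO libraries. By contrast, 14 of 15 hippocampal excitatory markers were lower in KO libraries. Markers of neocortex, choroid plexus, astrocytes, microglia and endothelium went both ways. The part of tissue content in the member values was not tested.

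Under stress, KO libraries were compared with WT libraries directly. EdgeR called 0 of 10 members beside 0% of all genes (0% in either direction), had 0 of 10 at an unadjusted p under 0.05 beside 4.71%, and found 0 of 10 without overlap beside 0.245%. DESeq2 called 0 with 1 unadjusted (Vip) beside 5.25% of genes. Voom called 0 with 6 unadjusted (Cck, Gad2, Lhx6, Npy, Sst and Vip) beside 17.9% of genes. Vip had the largest difference, −0.61 ± 0.3 on the log2 scale (95% interval −1.23 to 0.01, edgeR adjusted p = 0.798). It was −0.37 ± 0.21 without the 3 libraries, −0.47 ± 0.21 within set 1 and −0.87 ± 0.41 within set 2, and none of these passed. The sign was the same in each, but these fits reuse the same libraries and are not repeats. Set 1 holds 2 stress libraries of each genotype. In set 2, the 3 KO stress libraries include KO stress 3 and 5, and the 4 WT stress libraries include WT stress 5. Sst (−0.3 ± 0.19), Cck (−0.3 ± 0.2) and Npy (−0.29 ± 0.23) followed, and Gad2 stood at 0.26 ± 0.21. All 15 tested striatal and all 14 hypothalamic markers were again higher in KO libraries (median log2 0.889 and 1.666), where 8005 of 16313 genes were. So were all 18 thalamus and habenula markers (median log2 0.825), all 12 of choroid plexus (1.415) and all 8 of oligodendrocytes (0.375). Of 15 hippocampal excitatory markers, 13 were lower, as were all 7 of microglia. Markers of neocortex, astrocytes and endothelium went both ways. The part of tissue content was not tested here either. The comparison under stress shares its libraries with both stress comparisons, so it is not separate evidence.

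The 3 thalamus-rich libraries parted the members into genes that were lower, higher and not separated there. Set beside the other 10 libraries of set 2, 8 of 10 members did not overlap, beside 24% of all genes (12% all above and 12% all below). Vip had 9.63 to 11.5 CPM in the 3 libraries against 20.9 to 40.9 CPM, Npy 24.5 to 38.7 against 55.4 to 82.8, and Sst 203 to 231 against 302 to 447. Cck had 267 to 333 CPM against 506 to 616, and Lhx6 13.1 to 17.1 against 21.1 to 27.8. The medians of these 5 genes were lower by 1.5 times (Lhx6) to 2.32 times (Vip). On the other side, Gad2 had 134 to 149 CPM against 75.4 to 102, Slc32a1 156 to 169 against 109 to 139, and Pvalb 96.9 to 104 against 44.1 to 89.6. For these genes the 3 libraries lay within the range of set 1 (108 to 187, 152 to 197 and 90.4 to 172 CPM), so the high values were not particular to them. Of the 5 low genes, Sst (212 to 427 CPM) and Cck (325 to 559 CPM) in set 1 overlapped the 3 libraries, while Vip, Npy and Lhx6 did not. Gad1 (289 to 305 CPM against 244 to 293) and Dlx6os1 (6.94 to 9.21 against 7.96 to 14.4) overlapped. These libraries were set apart by other genes, all 3 are stress libraries, and no test was made between them and the rest.

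Summed levels of some other regions and cell types also set the 3 libraries apart from the rest of set 2, and others overlapped. The summed level of 15 markers of hippocampal excitatory neurons was 4030 to 5020 CPM in the 3 libraries, against 7800 to 9300 CPM in the rest of set 2 and 4750 to 5830 CPM in set 1. The 14 hypothalamic markers summed to 134 to 426 CPM against 12.9 to 36.1, and the 8 oligodendrocyte markers to 7680 to 11400 against 3720 to 7120 CPM. In set 1 these sums were 49.5 to 437 and 5740 to 9110 CPM, so both lists overlapped between the 3 libraries and set 1 and lay above the rest of set 2. The 12 neocortical markers summed to 241 to 267 CPM against 293 to 410, and the 7 astrocyte markers to 2490 to 2760 against 2880 to 3380 CPM. In set 1 they ran from 359 to 452 CPM for neocortex, above the 3 libraries, and from 2310 to 3040 CPM for astrocytes, around them. The sums of the 3 libraries and the rest of set 2 overlapped for striatum (251 to 328 against 209 to 408), choroid plexus (811 to 2180 against 24.1 to 2600), microglia (342 to 377 against 355 to 469) and endothelium (260 to 325 against 227 to 301 CPM). No marker was at 0 in a whole group, and the part of these tissues in the member values was not tested. In set 1, where thalamic sums reached 834 CPM, the lowest Vip value was 26.3 CPM and the lowest Npy value 48.3 CPM.

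**Figure D3:**
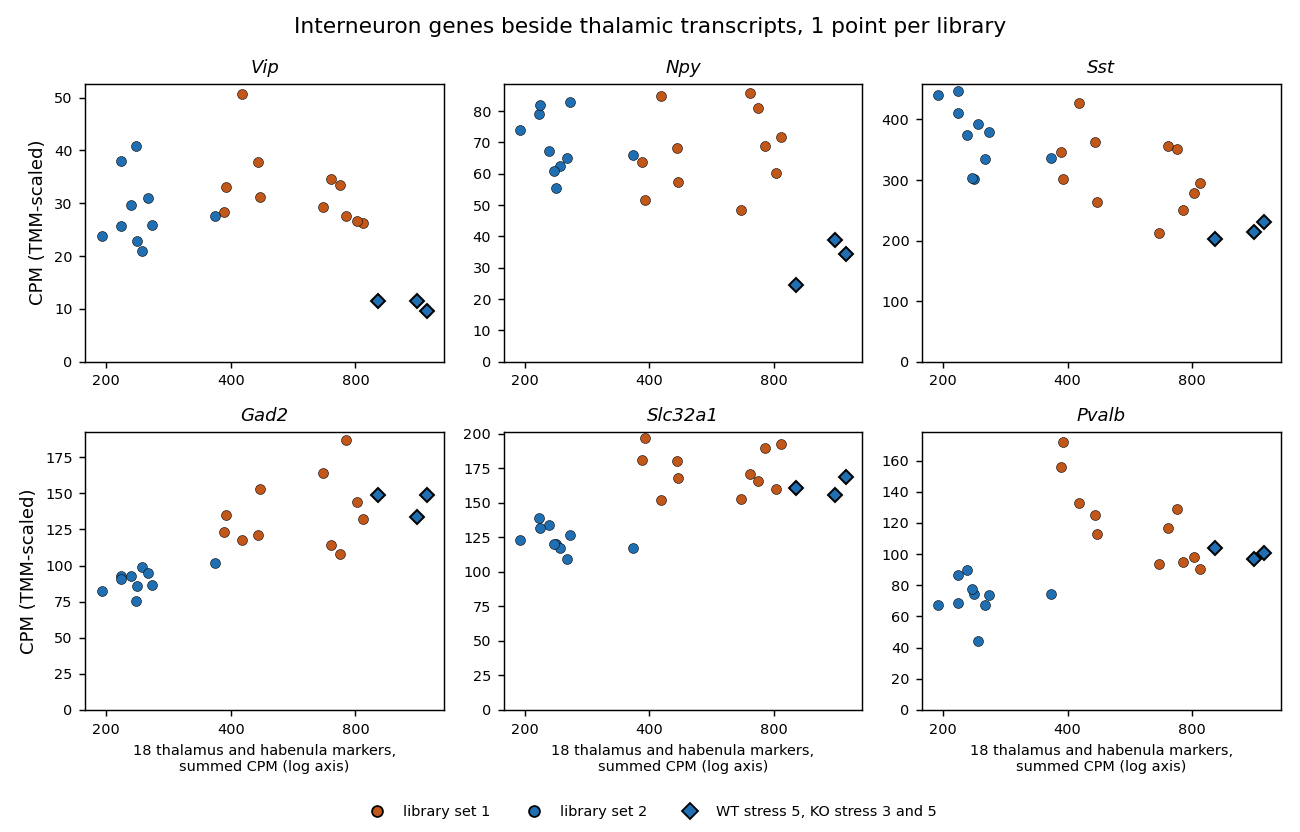
Level of 6 members (y axes, TMM-scaled CPM) against the summed CPM of 18 thalamus and habenula markers (x axis, log scale), 1 point per library, with WT stress 5 and KO stress 3 and 5 as diamonds at 907 to 1195 CPM. Vip and Npy are lowest at the diamonds, while Gad2, Slc32a1 and Pvalb are lowest in the other 10 libraries of set 2.

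By group, the same marker sums overlapped for thalamus and habenula and for hippocampal excitatory neurons, and none of the genes of these lists passed edgeR's test in either stress comparison. The thalamus and habenula sum had a median of 258 CPM (range 217 to 667) in control and 321 CPM (195 to 1130) in stressed WT libraries, and of 542 CPM (229 to 834) and 809 CPM (237 to 1190) in the KO groups. The hippocampal excitatory sum had medians of 8160 CPM (5130 to 9140), 6730 CPM (4750 to 9300), 5550 CPM (4830 to 8500) and 4920 CPM (4030 to 8610) in the same order. The groups also held different shares of set 1, from 3 of 7 WT control to 4 of 6 KO control libraries, and the part of set and region in these medians was not tested.

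Some members also differed between the library sets. In a fit of group means plus set, edgeR called 20.8% of all genes (11.2% higher and 9.56% lower in set 2), and 3 of 10 members, all lower in set 2. Pvalb differed by −0.63 ± 0.12 on the log2 scale (edgeR adjusted p = 0.000811), from 120 ± 26.6 CPM (SD, n = 11) in set 1 to 78.9 ± 16.5 CPM (n = 13) in set 2. Gad2 differed by −0.42 ± 0.12 (edgeR adjusted p = 0.0145; 136 ± 24.1 against 103 ± 24.9 CPM). Slc32a1 differed by −0.38 ± 0.07 (edgeR adjusted p = 0.000501, 174 ± 15.8 against 133 ± 18.9 CPM). The other 7 members did not pass. In set 2 without the 3 thalamus-rich libraries, Slc32a1 ran from 109 to 139 CPM, below the whole of set 1 (152 to 197 CPM). Gad2 (75.4 to 102 against 108 to 187 CPM) and Pvalb (44.1 to 89.6 against 90.4 to 172 CPM) were separated in the same way. The share of all genes separated like this is not given here. A fit without the 3 thalamus-rich libraries was added after the first one was seen. In it edgeR called 31.1% of 16592 genes (14.9% higher and 16.2% lower in set 2) and 7 of 10 members. For Gad2, Slc32a1, Pvalb, Cck and Lhx6, the libraries left out lay on the set 1 side of the rest of set 2. Leaving them out was therefore bound to widen the differences of these genes, and is not separate evidence for them. Pvalb (−0.73 ± 0.12), Gad2 (−0.6 ± 0.08), Slc32a1 (−0.48 ± 0.05) and Gad1 (−0.18 ± 0.05, edgeR adjusted p = 0.00404) were lower in set 2. Cck (0.39 ± 0.09, edgeR adjusted p = 0.0014), Lhx6 (0.22 ± 0.07, 0.0158) and Dlx6os1 (0.32 ± 0.12, 0.0425) were higher there. Cck had 421 ± 73.7 CPM in set 1 (SD, n = 11) and 554 ± 43 CPM in the 10 other libraries of set 2, against 495 ± 118 CPM in all 13. With all libraries the 4 added members had not passed (edgeR adjusted p = 0.0639 for Gad1, 0.24 for Cck, 0.438 for Lhx6 and 0.123 for Dlx6os1). Vip was at −0.46 ± 0.18 with all libraries and −0.25 ± 0.11 without the 3 (edgeR adjusted p = 0.079 and 0.104), with 32.6 ± 6.96 CPM in set 1 and 28.6 ± 6.5 CPM in the 10 libraries. Sst (0.22 ± 0.11, edgeR adjusted p = 0.138) and Npy (0.05 ± 0.11, 0.774) did not pass without the 3 either. Because the sets were defined from the counts and the labels do not name them, they are described here and not called a batch.

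Ratios between members within a library do not depend on its total. Gad1 reads per Gad2 read had a median of 2.32 in set 1 (range 1.92 to 2.59) and 2.91 in set 2 (1.94 to 3.4), and the 3 thalamus-rich libraries, at 2.16, 1.94 and 2.04, had the lowest ratios of set 2. By group the mean ratio was 2.61 ± 0.444 (SD, n = 7) in control and 2.69 ± 0.47 (n = 6) in stressed WT libraries, and 2.52 ± 0.438 (n = 6) and 2.27 ± 0.462 (n = 5) in the KO libraries, with overlap. Pvalb per Sst had a median of 0.369 in set 1 and 0.222 in set 2, with 0.454, 0.436 and 0.514 in the same 3 libraries. Slc32a1 per Gad2 had a median of 1.45 in set 1 and 1.4 in set 2, and its ranges overlapped. The members therefore did not move as 1 block.

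**Figure D4:**
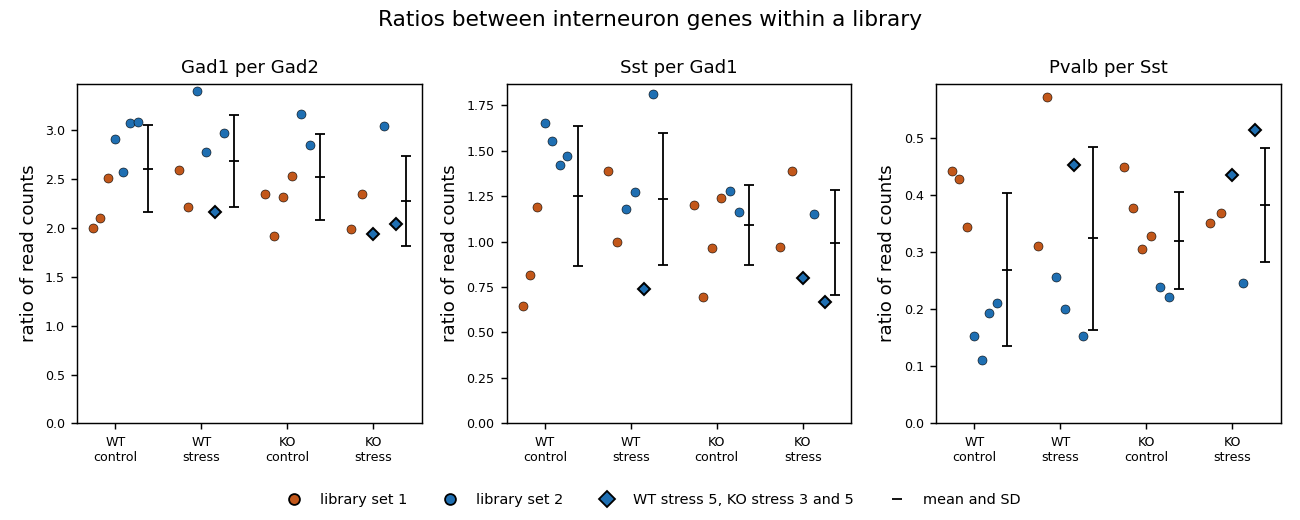
Ratios of read counts within each library (y axis) by group for Gad1 per Gad2, Sst per Gad1 and Pvalb per Sst, with 1 point per library, mean and SD as bars, and WT stress 5 and KO stress 3 and 5 as diamonds. Set 2 circles lie mostly above set 1 for Gad1 per Gad2. For Pvalb per Sst they all lie below it (at most 0.256 against at least 0.306). With the diamonds included, the medians of set 2 and set 1 are 2.91 and 2.32 for Gad1 per Gad2, and 0.222 and 0.369 for Pvalb per Sst.

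Likeness between genes was described by Pearson's r of log2 CPM over the 24 libraries after taking out group and set means. The points share libraries and their tissue content, so no p is given. The highest r between members were those of 3 peptide genes, with 0.93 for Cck and Sst, 0.92 for Cck and Npy and 0.86 for Npy and Sst, and 0.92, 0.79 and 0.78 over the 21 libraries without the 3. Gad1 and Gad2 had r = 0.84 (0.75 without the 3), and Cck and Gad2 ran opposite, at −0.91 (−0.77). Other pairs rested on the 3 libraries: Gad2 and Vip went from −0.8 to −0.43, and Lhx6 and Vip from 0.62 to −0.11. Among 16312 other genes, the nearest to Sst and to Cck was Ptms (0.98 and 0.97), to Npy it was Ppp1r1a (0.97), to Vip E130012A19Rik (0.97) and to Gad2 Rcbtb1 (0.96). The nearest to Gad1 was Ddhd1 (0.89), to Slc32a1 Zfp92 (0.89), to Pvalb Hcn2 (0.89), to Lhx6 Ski (0.87) and to Dlx6os1 Mtpap (0.83). Without the 3 libraries r was 0.98 for Sst and Ptms, and 0.68 for Slc32a1 and Zfp92 and 0.62 for Lhx6 and Ski.

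Further genes of interneuron biology were read from 5 lists, and 0 passed edgeR's test in either stress comparison. The lists were read with all libraries only, so how far their values rest on the thalamus-rich libraries was not tested. At an unadjusted p under 0.05, the counts of each list stand beside the 4.41% of all genes in WT and 3.97% in KO mice. Of 8 genes of GABA synthesis, uptake and breakdown, 0 had an unadjusted p under 0.05 in either genotype. Slc6a11, the GABA transporter of astrocytes, had the lowest p in KO mice of these, at 0.54 ± 0.34 on the log2 scale. Of 15 transcription factors of the lineage, 0 in WT and 1 in KO mice had an unadjusted p under 0.05. The lowest p in WT mice belonged to Dlx1 (−0.22 ± 0.12) and Dlx6 (−0.27 ± 0.21).

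Of 31 tested markers of other subtypes, 1 in WT and 2 in KO mice had an unadjusted p under 0.05, beside those shares of 4.41% and 3.97% of all genes, so the count is near the background and no result about the list. The genes were Ndnf, of neurogliaform cells, in WT mice (−0.43 ± 0.19), and Id2 (−0.28 ± 0.12) and Elfn1 (−0.13 ± 0.06) in KO mice, and the neuronal nitric oxide synthase Nos1 followed in WT mice at −0.42 ± 0.21. Of 11 receptors for the peptides, 0 in WT and 1 in KO mice had such a p. This was the somatostatin receptor Sstr2 at −0.49 ± 0.21, next to the cholecystokinin receptor Cckbr at −0.55 ± 0.33, and in WT mice Sstr3 was at −0.21 ± 0.14 and the neuropeptide Y receptor Npy5r at 0.26 ± 0.19. Of 11 genes of peptide processing, 0 in WT and 1 in KO mice had such a p. This was the prohormone convertase Pcsk2 at −0.19 ± 0.09, followed by its partner Scg5 at −0.14 ± 0.1, and in WT mice Pcsk1n was at 0.17 ± 0.12 and Chgb at −0.17 ± 0.15. The adjusted p of each of these genes was 1 in WT and 0.988 in KO mice by edgeR, and the medians of the 5 lists ran from −0.07 to −0.019 in WT mice and from −0.121 to 0.082 in KO mice.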

How the data were processed

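Hippocampal RNA-seq of 24 mouse libraries in 4 groups was analysed, with groups and replicate numbers taken from the sample titles. The authors deposited read counts per gene symbol as whole numbers, not normalized, and every column belongs to a sample of the series. The submitters' processing notes name STAR, DESeq2 and mm10. Versions, the read counter, its annotation and its strand setting were not given in the sources used here. The deposited normalized counts and comparison table were not used, since the table does not name its groups.

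Depth was 25711872 to 35148198 counts per library. Genes passing edgeR's expression filter (minimum count 10; 16313 genes) were tested in 1 fit of 4 group means with TMM factors and the robust quasi-likelihood F test (edgeR 4.0.16, R 4.3.3), adjusted over all genes at 0.05; 20 residual degrees of freedom were left. No 2 libraries of a group agreed within sampling noise (smallest mean chi-square per gene 8.56). Intervals are 95% from the t distribution. Fold changes are log2 of fitted means. The fit was checked on simulated counts, in which 200 genes with a mean count above 100 were changed and no library set or thalamic content was built in. Of 100 genes changed 2-fold, 92% were recovered for stress in WT and 93% in KO mice, with 14 and 10 false calls among the unchanged genes. Far fewer genes passed in the data, which makes the adjusted threshold stricter there. These shares are therefore not the power of the tests of the members.

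Alternatives were DESeq2 1.42.0, limma voom 3.58.1 with quality weights, RLE factors, other filters, the library set as a term or alone, only the groups compared, the replicate number as a block, and libraries left out. All 10 genes were named in each comparison. From each of 5 interneuron lists, genes past the threshold or else the 2 with the smallest p in the stress comparisons were named, and for likeness the genes with the highest r (log2 CPM, prior count 2). A few list genes that this rule would name are not reported here. The genes, lists and tests were chosen with earlier results of these data known. Promoters came from RefSeq (GRCm38.p6), where all 10 genes matched by symbol, and motifs were searched in the 250 bases before the start.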

Additional observations from a re-analysis of the deposited data

Results flagged for a closer look

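Within each group the highest and lowest library of every member was compared with the others, over 40 sets of values, and 3 of them had a library set far from the rest; chance alone flags about 1 in 20. Gad1 in KO control replicate 2 stood at 360 CPM, with the next highest KO control library at 305 CPM. KO control replicate 2 also had the highest summed level of striatal markers of all libraries (1481 CPM, the next 946.7 CPM) and the highest Gad2 level (187 CPM). The part of striatal content in its Gad1 level was not tested. Npy in KO control replicate 4 stood at 85.7 CPM, with the next at 71.8 CPM. Slc32a1 in KO stress replicate 4 stood at 120 CPM, with the next lowest KO stress library at 160 CPM. That library is the 1 of set 2 in the KO stress group without raised thalamic transcripts.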

How the results depend on the processing

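In the 5 group comparisons, no member passed the threshold under any of the 540 values from other settings or the 1200 from leaving out 1 library, and the smallest adjusted p was 0.21 (Vip, KO against WT under stress, limma voom). Of the 540 values 484 kept their direction and 56 reversed, and of the 1200 values 46 reversed; the cause was not tested. The RLE factors, DESeq2, both filters and only the groups compared reversed no member. The median shift of all genes stayed within 0.02 under every setting.

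Without WT stress 5, KO stress 3 and KO stress 5, the stress value reversed in WT mice for Sst (0.04) and Cck (0.06) and in KO mice for Gad2 (−0.15) and Cck (0.01), as did the Lhx6 interaction (0.02) and, under stress, KO against WT for Gad1 (−0.03) and Dlx6os1 (0). With the set as a term, reversals were Slc32a1 for stress in WT (0.01) and KO mice (0.05), Pvalb in KO mice (0.15), the interaction of Slc32a1 (0.04) and Dlx6os1 (−0.01), KO against WT in controls for Dlx6os1 (0.04) and Npy (−0.01), and under stress Pvalb (0.01). In set 1 alone the WT stress value reversed for Slc32a1 (0.06), Npy (0.24), Sst (0.38) and Cck (0.3). The KO stress value reversed there for Gad2 (−0.14), Sst (0.01), Vip (0.04) and Cck (0.1), and the interaction for Lhx6 (0.09) and Dlx6os1 (−0.26). KO against WT reversed in set 1 among controls for Gad1 (−0.03), Gad2 (−0.07), Dlx6os1 (0.25), Sst (0.16) and Cck (0.12), and under stress for Gad1 (−0.16), Gad2 (−0.01), Slc32a1 (−0.09), Lhx6 (0.05), Dlx6os1 (−0.01) and Npy (0.05). In set 2 alone, stress reversed for Gad2 (0.07) and Vip (−0.05) in WT and Slc32a1 (0.27) and Pvalb (0.19) in KO mice, and the interaction for Gad1 (0), Slc32a1 (0.29) and Pvalb (0). KO against WT reversed in set 2 for Slc32a1 (−0.04), Lhx6 (0.03), Npy (−0.2) and Vip (0.05) in controls and Pvalb (0.27) under stress. Voom reversed the interaction of Slc32a1 (0.02) and KO against WT for Npy in controls (−0.02) and Dlx6os1 (−0.01) and Pvalb (0.15) under stress.

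Leaving out 1 library moved the WT stress value from −0.14 to 0.04 for Slc32a1, −0.17 to 0.03 for Sst, −0.09 to 0.26 for Vip and −0.1 to 0.06 for Cck, and the KO stress value from −0.05 to 0.17 for Gad2 and −0.14 to 0.12 for Pvalb. The interaction moved from −0.14 to 0.06 for Slc32a1 and −0.06 to 0.14 for Dlx6os1. KO against WT moved in controls from −0.03 to 0.22 for Gad2, −0.09 to 0 for Lhx6, −0.13 to 0.06 for Dlx6os1, −0.03 to 0.09 for Npy and −0.11 to 0.03 for Vip, and under stress from −0.02 to 0.05 for Gad1, −0.09 to 0.1 for Dlx6os1 and −0.12 to 0.2 for Pvalb.

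Over all genes, 22 passed for stress in WT mice, 59 by DESeq2, 0 in set 1 alone, and 15 to 27 with 1 library left out (fewest without WT control replicate 1). For stress in KO mice 1 passed, 7 by DESeq2, 0 to 2 with 1 library left out, and 0 with no expression filter, without the 3 libraries, with the set as a term, in set 1, in set 2 and with only the groups compared. For KO against WT in controls 0 passed, and 3 by DESeq2. The labels give the replicate numbers no meaning, but same-numbered libraries often lay in the same library set. Replicates 1 and 2 were in set 1 in every group, and replicates 5 to 7 in set 2 wherever present. The 33 same-numbered pairs of libraries had a median r of 0.117 (range −0.43 to 0.489, 18 over 0.1), against −0.0755 for 182 other pairs (64 over 0.1). The set was not taken out of these r. With the replicate block 24 genes passed for stress in WT and 1 in KO mice, and 0 in the other comparisons. The block reversed Cck for stress in WT (0.04), Gad2 for stress in KO mice (−0.03) and KO against WT for Vip in controls (0.07) and Gad1 under stress (0). With 5 to 7 libraries in a group, the 95% interval for stress in KO mice ran from −0.29 to 0.05 for Gad1 and from −1.1 to 0.14 for Vip on the log2 scale. Without the 3 libraries, the difference between the library sets passed for 7 members in place of 3, and that of Npy reversed (0.05).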
